A study of Mus musculus with 16 samples.

Results

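Genes that build ribosomes in the nucleolus were followed in macrophages sorted from mouse gliomas. The list names 40 such genes, and a gene was measured where a probe set was annotated to its symbol alone. This held for 37 of the 40, out of 12394 genes measured on the arrays. Where a gene had several such probe sets, the one with the highest mean over the 16 arrays was taken. Dkc1 and Npm3 had no probe set listed with their symbol alone, and the probe set of Mrto4 also names 2 pseudogenes, so these 3 genes carry no value here. The list was drawn up with the differences between BLZ945 and Vehicle mice on these arrays known and counts as selected on those values, so its counts describe the genes and are not independent evidence of a direction.

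All 16 mice carried the genotype Nestin-Tv-a;Ink4a/Arf-/- on a mixed background, 1 array per mouse. In these mice the Nestin promoter drives the receptor for RCAS viruses, so that a tumour starts in Nestin-expressing cells, and Ink4a/Arf was absent from all cells of the mice, the macrophages included. Tumours were started with DF-1 cells that release RCAS-PDGF-B-HA, and all mice therefore had PDGF-B-driven gliomas. For 7 days, 8 mice received BLZ945, which blocks the kinase of the CSF-1 receptor, by gavage (200 mg, with no body weight labelled), and 8 received the vehicle, 20% captisol. The Vehicle group held 4 female and 4 male mice, and the BLZ945 group 5 female and 3 male mice. Labelled ages were 11.29 weeks for 4 Vehicle mice, 11.43 weeks for 2 and 12.29 weeks for 2, against 11.29 weeks for 4 BLZ945 mice and 13.14 weeks for the other 4. CD11b+ Gr.1- cells were sorted from the dissociated tumour, so each array reads a mixture of whatever cells passed that gate.

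The arrays reported macrophage markers at high log2 values in every mouse. The mean of 10 such markers lay between 11.85 and 12.35 in Vehicle and between 11.72 and 12.21 in BLZ945 mice. Of these markers, 1 of 10 changed (10%, against 7.94% of all genes). It was Itgam, which encodes the CD11b used for the sort and fell by 1.17 (limma adjusted p = 0.00807). Csf1r, the target of the agent, differed by 0.06 (adjusted p = 0.730). Markers of glioma and oligodendrocyte precursor cells were also read, with a mean over 12 markers of 5.81 to 7.41 in Vehicle and 4.69 to 6.17 in BLZ945 mice. Of the 12, 6 fell (50%, against 5.34% of all genes). Labelled initial tumour volume, given without a unit, was 11.9 to 27.3 in the 6 Vehicle mice that have one and 41.3 to 132.3 in the 8 BLZ945 mice, so volume and agent cannot be told apart.

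Ribosome assembly begins in the nucleolus, where RNA polymerase I transcribes the long precursor of the ribosomal RNAs. Box C/D particles guide methylation of that RNA and box H/ACA particles guide the conversion of uridine to pseudouridine, while separate sets of assembly factors fold, cleave and export the small and the large subunit. The genes are known as targets of the transcription factor Myc, and their expression is generally high in growing and dividing cells.

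Promoters of the genes are shown because most of the genes had differences of the same sign. RefSeq promoters (build GRCm38.p6) were matched by symbol for 34 of the 40 listed genes, and 6 were not matched: Rrs1, Rrp12, Fbl, Npm1, Bop1 and Gnl2. Among the matched genes were 7 that passed the test described below as lower in BLZ945 mice. The 100 bases before the start of 5 of these 7 follow, 5′ to 3′ on the strand of the gene. Capitals mark CGGAAG or its reverse complement CTTCCG, the core letters of sites for ETS factors such as GABP.
Ddx21 (chr10:62602299-62602398, minus strand): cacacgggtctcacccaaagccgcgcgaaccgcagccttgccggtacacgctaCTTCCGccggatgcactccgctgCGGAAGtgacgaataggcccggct
Nolc1 (chr19:46075747-46075846, plus strand): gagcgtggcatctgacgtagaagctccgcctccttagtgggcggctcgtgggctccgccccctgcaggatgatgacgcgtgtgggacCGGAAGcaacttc
Nhp2 (chr11:51619673-51619772, plus strand): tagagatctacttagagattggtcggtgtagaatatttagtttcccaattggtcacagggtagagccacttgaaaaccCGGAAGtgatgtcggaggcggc
Ncl (chr1:86359456-86359555, minus strand): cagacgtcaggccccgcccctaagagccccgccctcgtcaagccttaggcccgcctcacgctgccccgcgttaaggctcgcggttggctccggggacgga
Nop58 (chr1:59684906-59685005, plus strand): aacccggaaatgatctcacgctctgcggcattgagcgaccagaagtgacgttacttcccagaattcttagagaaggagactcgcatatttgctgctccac
In the 250 bases before the start, read on both strands, these letters occurred in 12 of the 34 genes (35.3%) and in 24.1% of the tested genes with a promoter in the table. As windows of equal length, 33.3% of 36 promoters of the list held them, against 20.6% of the promoters of tested genes and 13.6% of all 32851 promoters. The windows of Ddx21, Nolc1 and Nhp2 hold the letters, and those of Ncl and Nop58 do not. Nop56 and Nop16, which are not printed, do not hold them either. The letters thus occurred in 3 of the 7 matched genes that were lower (42.9%).

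The E-box CACGTG, which reads the same on both strands and is the canonical Myc site, occurred in 2 of the 34 genes (5.88%), against 9.19% of tested genes with a promoter. The 2 genes were Imp4 and Nop2, and the 40 bases around the E-box, in capitals, are shown for them.
Imp4 (chr1:34439691-34439730, plus strand): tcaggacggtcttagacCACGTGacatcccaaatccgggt
Nop2 (chr6:125131806-125131845, plus strand): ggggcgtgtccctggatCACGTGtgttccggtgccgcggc
TATAAA or TTTATA occurred in 3 of the 34 genes (8.82%), against 10.7% of tested genes. The matches in Ppan on the opposite strands overlap each other, and no E-box overlapped another of these motifs. A match of letters describes the window and is no measured site.

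Across the list, BLZ945 mice had lower values. Of the 37 measured genes, 9 fell (24.3%), 0 rose and 28 did not pass the test (limma, Benjamini-Hochberg adjusted p under 0.05 over all 12394 genes), while of all tested genes 5.34% fell, 2.6% rose and 7.94% did either. Without adjustment, 20 of the 37 were lower and 0 higher at p under 0.05, against 1432 lower and 1370 higher of all 12394 genes. The difference was below 0 in 33 of the 37 genes, against 38.9% of all genes, and the median difference was −0.31 log2 units, against 0.07 over all genes. Of the 9, only Nop58 fell by at least 2-fold, a size that 1.76% of all genes reached with a call. In 0 of the 37 genes did all 8 BLZ945 mice lie below all 8 Vehicle mice, against 1.04% of all genes. In bulk RNA, fewer cells of a type and less RNA per cell cannot be told apart.

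**Figure D1:**
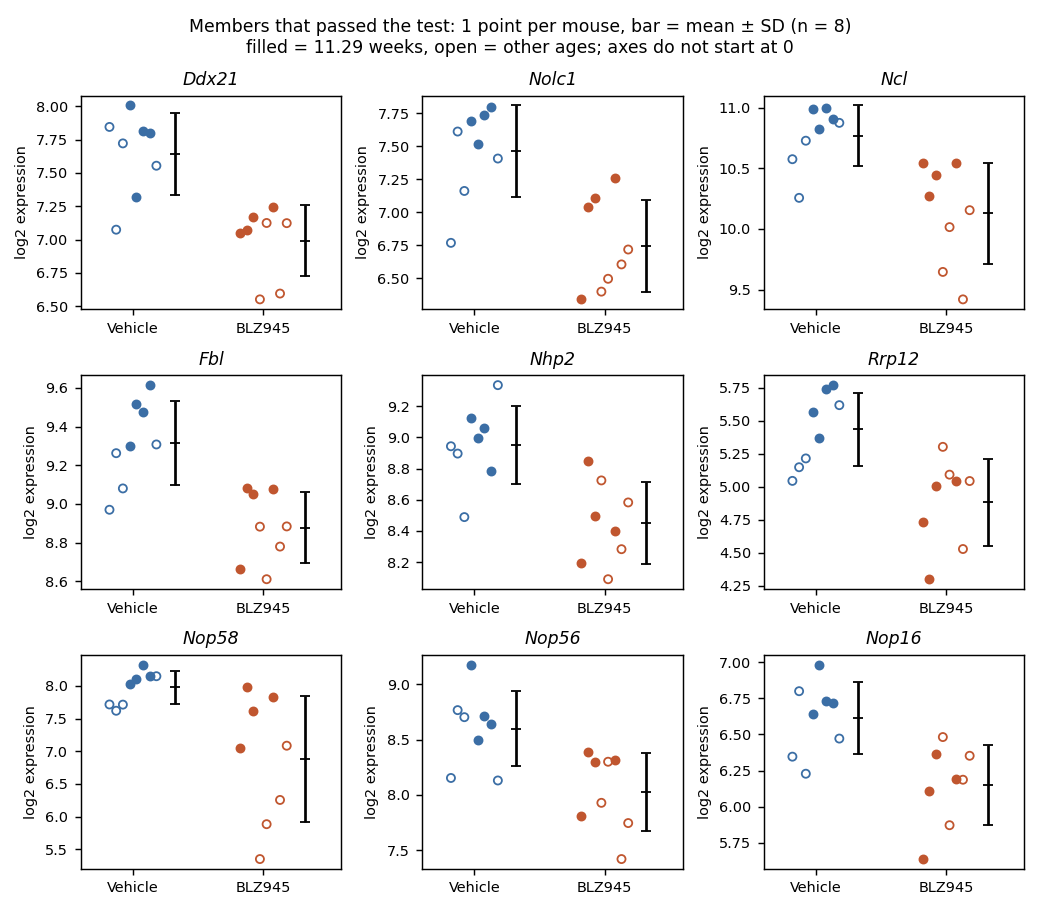
The 9 genes that passed the test, 1 panel each, with log2 expression on the vertical axis, 1 point per mouse and bars for the mean ± SD of 8 mice. Filled points are mice of 11.29 weeks. Most BLZ945 points lie below most Vehicle points in each panel, with some overlap, and Nop58 has the widest spread, from 5.35 to 7.99 in BLZ945 mice.

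All 3 core proteins of box C/D particles that were listed fell, against 5.34% of all genes. Fibrillarin, Fbl, the methyltransferase of these particles, had log2 values of 8.97 at the lowest, 9.30 at the median and 9.61 at the highest in Vehicle mice, against 8.61, 8.88 and 9.08 in BLZ945 mice. The groups overlapped only narrowly, with 5 of 8 BLZ945 mice below the lowest Vehicle mouse. Its mean fell from 9.32 ± 0.22 to 8.88 ± 0.18 (SD, n = 8 each), a difference of −0.44 with a standard error of 0.11 (limma adjusted p = 0.0221), which is 1.35-fold lower.

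Nop58, a scaffold protein of the particle, ranged from 7.62 through a median of 8.07 to 8.32 in Vehicle mice and from 5.35 through 7.06 to 7.99 in BLZ945 mice. The Vehicle mice lay close together and the BLZ945 mice were spread widely. The difference of −1.09 (SE 0.31, adjusted p = 0.0374), or 2.14-fold, is the largest of the list. With the array SD as a covariate it was −0.67 and did not pass (adjusted p = 0.0529). Nop56, its partner in the scaffold, ranged from 8.13 through 8.67 to 9.18 in Vehicle and from 7.42 through 8.11 to 8.39 in BLZ945 mice. Here 4 of 8 BLZ945 mice were below every Vehicle mouse. The difference was −0.57 (SE 0.17, adjusted p = 0.0403), or 1.49-fold.

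Among the box H/ACA proteins 1 of 3 fell (33.3%, against 5.34% of all genes), and all 3 had differences below 0. Nhp2, an RNA-binding core protein, ranged from 8.49 through 8.97 to 9.33 in Vehicle and from 8.09 through 8.45 to 8.85 in BLZ945 mice. All 8 BLZ945 mice were below the Vehicle mean, although the ranges overlapped. The difference was −0.50 (SE 0.13, adjusted p = 0.0243), or 1.42-fold lower. Gar1, which binds the particle's enzyme, differed by −0.17 (adjusted p = 0.373) and Nop10, the smallest core protein, by −0.09 (adjusted p = 0.721). Dkc1, the pseudouridine synthase itself, was not among the measured genes.

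Of the abundant nucleolar phosphoproteins and chaperones, 2 of 3 fell (66.7%, against 5.34% of all genes). Nolc1, also called Nopp140, which binds both classes of particle, ranged from 6.77 through 7.56 to 7.80 in Vehicle and from 6.34 through 6.66 to 7.26 in BLZ945 mice. Of the Vehicle mice 6 lay above every BLZ945 mouse, and Vehicle 1 was the lowest of its group. The difference was −0.72 (SE 0.17, adjusted p = 0.0116), or 1.64-fold. Its other 2 probe sets differed by −0.36 and −0.41, and with the brighter of them the gene did not pass (adjusted p = 0.173).

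Nucleolin, Ncl, which binds ribosomal RNA precursors and nucleolar chromatin, ranged from 10.26 through 10.85 to 11.003 in Vehicle and from 9.42 through 10.21 to 10.55 in BLZ945 mice. Vehicle mice were above every BLZ945 mouse in 7 of 8 cases. The difference was −0.64 (SE 0.17, adjusted p = 0.0217), or 1.56-fold, and the other 3 probe sets of the gene differed by −1.06, −0.50 and −0.40. With the first of these the gene did not pass (adjusted p = 0.0845). Nucleophosmin, Npm1, a histone and ribosomal protein chaperone, differed by −0.18 (adjusted p = 0.542), with ranges of 10.67 to 11.54 in Vehicle and 10.42 to 11.52 in BLZ945 mice that nearly coincide.

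Among subunits of RNA polymerase I and Ddx21, 1 of 4 fell (25%, against 5.34% of all genes). Ddx21, a nucleolar RNA helicase that links polymerase I transcription to rRNA processing, ranged from 7.07 through 7.76 to 8.01 in Vehicle and from 6.55 through 7.10 to 7.25 in BLZ945 mice. The lowest Vehicle mouse was the only one inside the BLZ945 range. With a difference of −0.65 (SE 0.14, adjusted p = 0.00882), or 1.57-fold lower, it had the smallest p of the list. Polr1b, the second-largest subunit of the enzyme, differed by −0.34 (adjusted p = 0.0805), and Polr1a, the largest, by −0.14 (adjusted p = 0.415). Polr1c, a subunit shared with RNA polymerase III, differed by 0.22 in the other direction (adjusted p = 0.298).

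Of the 12 factors of the small subunit 1 fell (8.33%), close to the 5.34% of all genes. Differences were below 0 in 10 of the 12, with a median of −0.32. Rrp12, a factor in export and maturation of the pre-40S particle, ranged from 5.04 through 5.47 to 5.77 in Vehicle and from 4.30 through 5.03 to 5.30 in BLZ945 mice. Of the BLZ945 mice 6 were below every Vehicle mouse. The difference was −0.55 (SE 0.15, adjusted p = 0.0298), or 1.47-fold lower.

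Just outside the threshold stood Utp20, a scaffold of the small-subunit processome, with an adjusted p of 0.0570 against 0.0404 for Nop16, the last gene inside it. Utp20 ranged from 7.05 through 7.27 to 7.53 in Vehicle and from 6.46 through 7.01 to 7.09 in BLZ945 mice. Only 1 BLZ945 mouse was not below the lowest Vehicle mouse, with a difference of −0.35. Pno1, which helps cleave the 3′ end of 18S rRNA, ranged from 7.84 through 8.17 to 8.40 and from 7.12 through 7.81 to 8.05, with a difference of −0.45 (adjusted p = 0.0763).

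Differences of the other small-subunit factors ran from −0.45 for Wdr75 to 0.28 for Rrp9, a protein of the U3 particle, and none of them passed. Wdr75, Wdr43 (−0.25) and Heatr1 (−0.16), which belong to the part of the processome that also supports rRNA transcription, had adjusted p of 0.165, 0.208 and 0.499. Nop14 (−0.37), Tsr1 (−0.36) and Bysl (−0.29), factors of early and late pre-40S particles, had adjusted p of 0.186, 0.248 and 0.133. Imp4 and Rcl1, which act in early cleavage of the precursor, were among the 3 genes nearest to no difference. Imp4 ranged from 7.66 through 7.97 to 8.19 in Vehicle and from 7.69 through 7.79 to 8.30 in BLZ945 mice (−0.08, adjusted p = 0.666), and Rcl1 from 6.15 through 6.56 to 6.84 and from 6.25 through 6.61 to 6.94 (0.06, adjusted p = 0.795). In both genes the groups covered nearly the same range.

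Among factors of the large subunit 1 of 12 fell (8.33%), close to the 5.34% of all genes. Differences were below 0 in 11 of the 12, and the median was −0.29. Nop16, a factor of early pre-60S particles, ranged from 6.23 through 6.68 to 6.98 in Vehicle and from 5.64 through 6.19 to 6.48 in BLZ945 mice. All 8 BLZ945 mice were below the Vehicle mean. The difference was −0.47 (SE 0.14, adjusted p = 0.0404), or 1.38-fold lower. The other probe set of Nop16, which was dimmer (mean 4.25 against 6.38), differed by 0.06. With the mean of both sets the gene did not pass (−0.20, adjusted p = 0.226).

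Pes1, which forms the PeBoW complex with Bop1 and Wdr12, ranged from 8.13 through 8.68 to 8.79 in Vehicle and from 7.82 through 8.21 to 8.57 in BLZ945 mice, and its difference of −0.38 did not pass (adjusted p = 0.0638). Its partners differed by −0.24 for Bop1 (adjusted p = 0.349) and −0.37 for Wdr12 (adjusted p = 0.191). The 3 subunits thus had differences of one sign, with 0 of 3 past the threshold. The second probe set of Pes1, with a mean of 5.10 against 8.40 for the first, differed by 0.07.

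The helicase Ddx18 (−0.31, adjusted p = 0.112), Ebna1bp2 (−0.30, 0.142), the rRNA methyltransferase Nop2 (−0.28, 0.313), the GTPases Gnl2 (−0.50, 0.240) and Gnl3 (−0.27, 0.362) and the 5S particle loading factor Rrs1 (−0.26, 0.357) did not pass. Nip7, a partner of pre-60S RNA, ranged from 7.68 through 8.16 to 8.32 in Vehicle and from 7.73 through 8.09 to 8.19 in BLZ945 mice, with a difference of −0.05 (adjusted p = 0.798). Ppan differed by 0.11 (adjusted p = 0.783), with 1 mouse, BLZ945 4, at 8.13, above all others, and by −0.05 without that mouse.

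**Figure D2:**
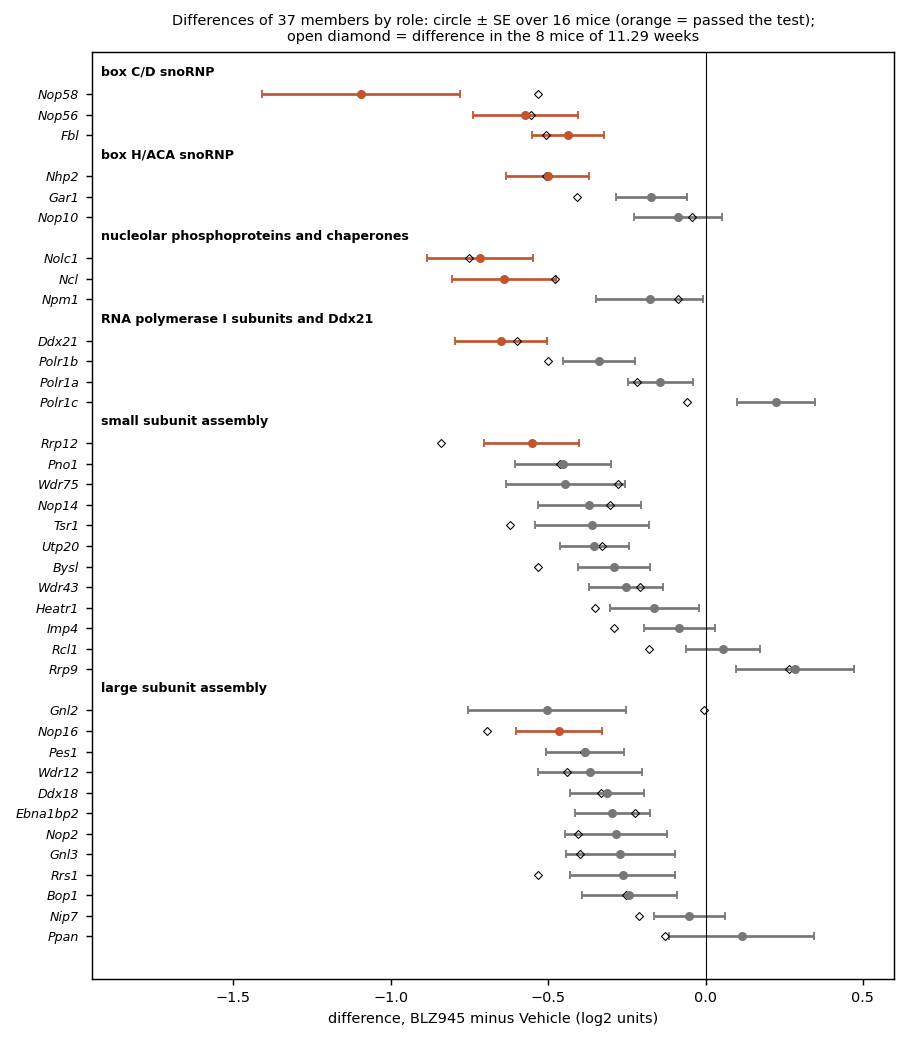
Differences of the 37 genes, BLZ945 minus Vehicle in log2 units, by role, as circles with standard errors over 16 mice (orange where the gene passed the test) and open diamonds for the 8 mice of 11.29 weeks. Most circles lie left of 0, from −1.09 for Nop58 to 0.28 for Rrp9, and 36 of 37 diamonds lie left of 0.

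The calls of Ddx21, Nolc1, Ncl and Fbl were kept in 16 of 16 fits that each left out 1 mouse. Nhp2 lost its call in 4 of these fits, Rrp12 in 7, and Nop56, Nop58 and Nop16 in 10 each, with adjusted p between 0.05003 and 0.0845 where lost. The mice were BLZ945 5 or 7 and Vehicle 4 or 8 for Nhp2 (adjusted p 0.0503 to 0.0528), and BLZ945 1, 2 or 7 and Vehicle 4, 6, 7 or 8 for Rrp12 (0.0525 to 0.0659). For Nop56 they were BLZ945 1, 4, 7 or 8 and Vehicle 2 to 7 (0.0554 to 0.0845), for Nop58 BLZ945 1, 4, 5 or 7 and Vehicle 1 or 4 to 8 (0.05003 to 0.0798), and for Nop16 BLZ945 1, 2, 5 or 7 and Vehicle 2 or 4 to 8 (0.0527 to 0.0826). Pes1 passed without BLZ945 3, BLZ945 6 or Vehicle 1 (0.0273 to 0.0490), Utp20 without BLZ945 6 or Vehicle 2 (0.0457 to 0.0470) and Pno1 without BLZ945 6 (0.0457). The number of the 37 genes that fell was lowest, at 4, without BLZ945 7 or without Vehicle 4, 5 without BLZ945 1 or Vehicle 6, 7 or 8, 6 without BLZ945 5 or Vehicle 5, and 12 without BLZ945 6. Of all genes, 3.89% to 6.06% fell in the fits that left out 1 mouse.

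Several probe sets were available for 22 of the 37 genes. The second-brightest set had a difference of the same sign in 16 and of the opposite sign in 6. The sets of opposite sign had means from 3.77 (Heatr1) to 6.09 (Bysl) and differences from 0.02 to 0.14. Some sets of the same sign were also dim, such as those of Wdr12 (4.43) and Imp4 (4.62). Of the 9 genes that fell, 7 had another set, which was lower in 6 and passed the test in 4. Fbl, Nop56 and Nhp2 were read by probe sets whose name marks probes shared by several transcripts, so their values may include related transcripts. The second-brightest sets of these genes, without that mark, differed by −0.54, −0.66 and −0.72. Each of them passed (limma adjusted p = 0.00747, 0.00308 and 0.00765).

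Mouse by mouse, the mean of the 37 genes ran from 7.49 to 7.88 in Vehicle and from 7.22 to 7.60 in BLZ945 mice, with group means of 7.75 ± 0.14 and 7.44 ± 0.13 (SD, n = 8 each). Only Vehicle 1, at 7.49, lay within the BLZ945 range. In each BLZ945 mouse 27 to 33 of the 37 genes were below the Vehicle mean, against 6 to 32 in the Vehicle mice. Of the 9 genes that fell, 9 were below the Vehicle mean in 7 BLZ945 mice and 8 in BLZ945 2. These 9 were called on the same mice, so that count follows largely from their selection and is no separate support.

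The genes did not rank the mice alike. BLZ945 1, of 11.29 weeks, was the lowest of its group in 12 genes and BLZ945 7, of 13.14 weeks, in 10. BLZ945 4 was the highest of its group in 11 genes, among them Ppan, Imp4 and Rrp9, yet it had the lowest Gnl2. Vehicle 1, of 12.29 weeks, was the lowest Vehicle mouse in 17 genes.

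**Figure D3:**
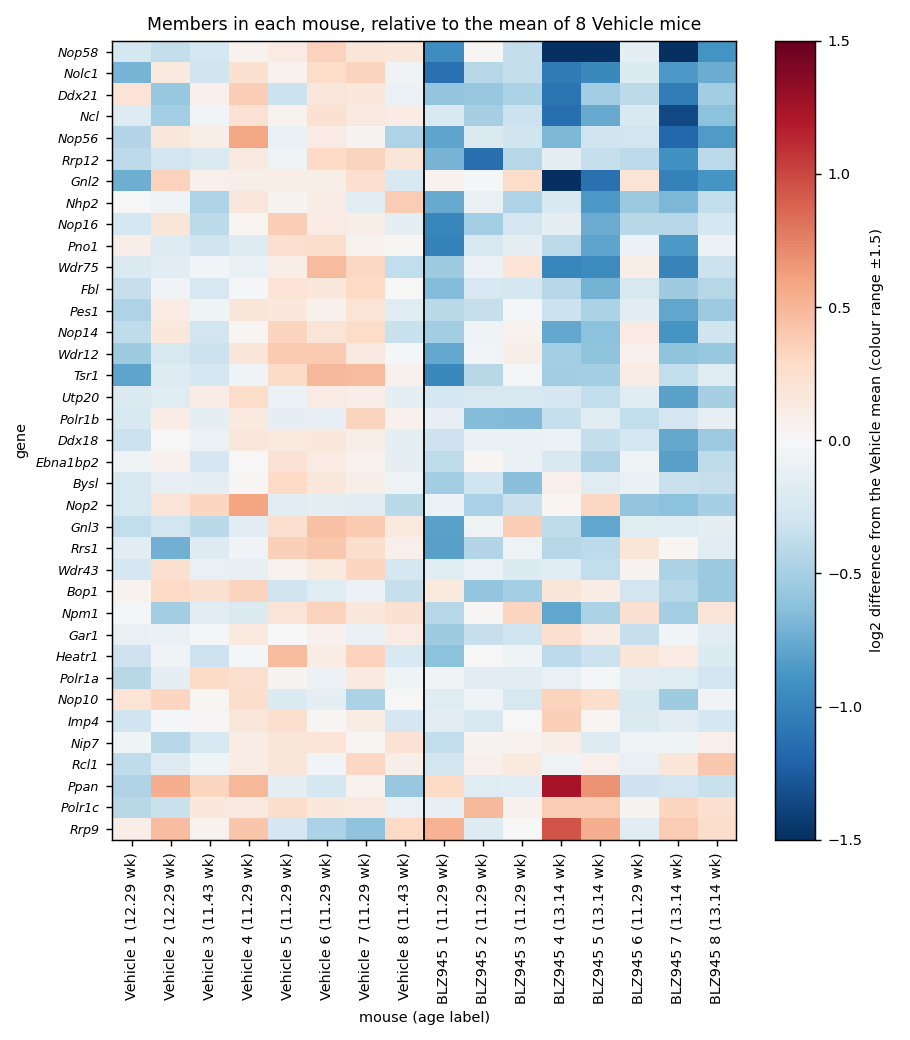
Each gene (rows) in each mouse (columns) as the log2 difference from the mean of 8 Vehicle mice, blue for lower and red for higher, with the colour limited to ±1.5 and genes ordered by difference. BLZ945 columns are mostly blue, with 27 to 33 of 37 genes below the Vehicle mean, and Nop58, Ncl and Gnl2 are darkest in mice of 13.14 weeks.

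Age differed between the groups, and 11.29 weeks was the only age with both agents, 4 mice each. Within it the difference was below 0 in 36 of the 37 genes, against 41.9% of all genes, with a median of −0.38. With 4 mice a group, 0 of the 37 genes passed the test in either direction, against 0.629% of all genes lower, and 18 were lower and 0 higher at an unadjusted p under 0.05 (48.6% lower, against 8.28% of all genes). In 15 of the 37 genes (40.5%) the 4 BLZ945 mice all lay below the 4 Vehicle mice of that age, against 5.63% of all genes, and 8 of those 15 were among the 9 genes that fell over all mice. The mice of 11.29 weeks are part of the set behind those 9 calls, so the overlap is no separate support.

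The sizes at 11.29 weeks stayed near those over all mice for most genes that fell. Nolc1 differed by −0.75, Ddx21 by −0.60, Nop56 by −0.56, Fbl and Nhp2 by −0.51 and Ncl by −0.48. Rrp12 and Nop16 differed more, by −0.84 and −0.69. Nop58 differed by −0.53, with 7.04 to 7.99 in BLZ945 and 8.03 to 8.32 in Vehicle mice of that age, while the BLZ945 mice of 13.14 weeks had 5.35 to 7.08, which touches the lowest mouse of 11.29 weeks. Gar1, which did not pass over all mice, did not overlap at 11.29 weeks (6.76 to 7.00 against 7.20 to 7.45, −0.41). Polr1c, Rcl1 and Ppan turned to −0.06, −0.18 and −0.13, which left Rrp9 (0.27) as the only gene with a difference above 0. With age as a covariate, the agent differences were the same as at 11.29 weeks, because no other age had both agents. Mice of the other ages entered that fit only through its estimate of spread. In it 1 of the 37 genes passed, Rrp12, while 1.43% of all genes fell.

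Among Vehicle mice the mean of the genes was 7.85 to 7.88 at 11.29 weeks and 7.49 to 7.69 at the other ages. Between these, 34 of the 37 genes were lower at the other ages (median −0.28), against 50.8% of all genes. This was noticed in the data and is given without a test. At 11.29 weeks Vehicle 4, 5 and 7 were male and Vehicle 6 female. At the other ages Vehicle 2 was male and Vehicle 1, 3 and 8 female, so sex and age were unevenly mixed. The part of sex in the pattern was not tested. The SD over all values of an array was 2.37 to 2.49 in the first set of mice and 2.30 to 2.38 in the second, and the part of that spread in the pattern was not tested.

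Within BLZ945, the 4 mice of 13.14 weeks were set against the 4 of 11.29 weeks, a contrast that the choice of genes did not rest on. Of the 37 genes 1 was lower (0.0403% of all genes were), and 22 had differences below 0, with a median of −0.08. Gnl2, a GTPase of pre-60S assembly, ranged from 6.60 to 7.24 in the older and from 8.08 to 8.40 in the younger BLZ945 mice. In Vehicle mice it ranged from 8.20 to 8.37 at 11.29 weeks and from 7.39 to 8.47 at the other ages. The older BLZ945 mice were thus below all other mice, while the younger ones lay at the Vehicle level of their age (difference −0.01). The difference with age was −1.26 (SE 0.18, limma adjusted p = 0.0473).

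This call of Gnl2 rests on 1 probe set. The other 2 sets of the gene differed by −0.49 and −0.26 with age, and the call was lost with the second-brightest set (adjusted p = 0.219), with sex as covariate (0.0997), after quantile normalization (−1.12, 0.102) and with the array SD as covariate (−1.04, 0.290). Nop58 had the next smallest p, with a difference of −1.48 (adjusted p = 0.141). Without adjustment 7 of the 37 genes were under 0.05 (18.9%), as were 18.7% of all genes. The array SD was 2.28 ± 0.07 in the older and 2.38 ± 0.07 in the younger BLZ945 mice (SD, n = 4 each, exact two-sided permutation p = 0.0857).

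Neither sex nor tumour volume gave a call among the 37 genes. Age was not in the sex fit, although most Vehicle mice of 11.29 weeks were male and most of the other ages female. For sex, with agent as covariate, limma called 0 of 37 (0.0323% of all genes), 2 were under 0.05 unadjusted (5.41%, against 9.80% of all genes), and the smallest adjusted p was that of Heatr1 (0.484), followed by Nolc1 (0.504). For the interaction of agent and sex it called 0 of 37 (0% of all genes), with 3 under 0.05 unadjusted (8.11%, against 3.34%), led by Ppan (1.08, adjusted p = 0.983) and Nop2 (0.68). For the slope on log2 volume within BLZ945 it called 0 of 37 (0% of all genes), with 3 under 0.05 unadjusted (8.11%, against 6.83%), led by Bop1 (−0.48, adjusted p = 0.711) and Ppan (−0.65). On simulated data, effects of 0.5 log2 units were recovered in 28.4% of genes for sex and 0.0% for the interaction. For the volume slope, 0.5 per doubling was recovered in 4.5%. Effects of that size could thus be present without a call.

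Other genes of the pathway were read from lists that were also drawn up with earlier results known. Of 75 further ribosome assembly factors measured (of 90 listed), 5 fell (6.67%, against 5.34% of all genes) and 0 rose. Differences were below 0 in 52 (69.3%, against 38.9% of all genes), with a median of −0.15. Ftsj3, an rRNA methyltransferase of the pre-60S particle, fell from 7.13 ± 0.34 to 6.28 ± 0.50 (−0.85, adjusted p = 0.0122). Utp4 of the processome fell by 0.39 (adjusted p = 0.0158), Ltv1, a pre-40S export factor, by 0.60 (0.0301), and Lyar by 0.48 (0.0390). Tcof1 (−0.10, 0.660), Eif6 (−0.16, 0.447) and Nmd3 (−0.25, 0.434), which act in rRNA transcription and in late steps of the large subunit, did not pass.

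Of 14 further RNA polymerase I factors 1 fell (7.14%, against 5.34% of all genes), 0 rose and the median was −0.04. Differences were below 0 in 7 of the 14 (50%, against 38.9% of all genes). The gene that fell was Top1, the topoisomerase that relieves supercoils during transcription (−0.53, adjusted p = 0.0220). Ubtf, the factor that binds rDNA promoters, differed by 0.04 (adjusted p = 0.857), Rrn3, which recruits the polymerase, by −0.26 (0.186), Polr1d by 0.31 (0.129), Polr1e by −0.35 (0.228) and Taf1d by −0.12. Of 19 nucleases and exosome subunits that trim rRNA, 0 fell and 0 rose, 7 were lower and 1 higher at an unadjusted p under 0.05, and the median was −0.26, with Exosc9 (−0.46, 0.0593) and Pop4 (−0.50, 0.110) first. In 15 of these 19 the difference was below 0 (78.9%).

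The list of proteins of the ribosome itself gave no call. Of 41 cytosolic ribosomal protein genes 0 fell and 0 rose by limma, 1 was lower and 2 higher at an unadjusted p under 0.05, and the median was −0.05. The sign was below 0 in 30 of the 41 (73.2%, against 38.9% of all genes). Their differences ran from −0.35 to 0.91, and their mean was 11.49 ± 0.05 in Vehicle and 11.46 ± 0.08 in BLZ945 mice. Rpl27a differed by 0.91 (adjusted p = 0.0516) and Rpl4 by −0.35 (0.0565).

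Myc, the transcription factor known to drive these genes, was 8.04 ± 0.24 in Vehicle and 7.87 ± 0.29 in BLZ945 mice, a difference of −0.16 (adjusted p = 0.483). Of 13 genes of its network 0 fell and 0 rose, 0 were lower and 2 higher at an unadjusted p under 0.05, and the median was 0.17. Here 2 of the 13 had differences below 0 (15.4%, against 38.9% of all genes). Mnt, a repressor that pairs with Max, differed by 0.46 (adjusted p = 0.0562) and Mlxip by 0.35 (0.158). Mycn (0.27, 0.409), Max (0.00), and the antagonists Mxd1 (0.17, 0.531), Mxd4 (0.25, 0.397) and Mxi1 (0.10, 0.703) did not pass.

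Translation factors had 6 of 35 genes that fell (17.1%, against 5.34% of all genes) and 1 that rose (2.6% of all genes did), with a median of −0.21. Differences were below 0 in 31 of the 35 (88.6%, against 38.9% of all genes). Eif5a, which helps the ribosome through difficult sequences, fell by 0.49 (adjusted p = 0.00771), Eef1e1 by 0.60 (0.0117) and the cap-binding Eif4e by 0.59 (0.0279), while the helicase Eif4a2 rose by 0.64 (0.0184). Of 17 aminoacyl-tRNA synthetases 0 fell and 0 rose, 5 were lower and 1 higher at an unadjusted p under 0.05, and the median was −0.18, with Hars (−0.39, 0.0643) and Tars (−0.48, 0.0862) first. In 16 of these 17 the difference was below 0 (94.1%). A sign mostly below 0 was thus shared by the translation factors and synthetases and was not particular to the ribosome assembly genes. The further RNA polymerase I factors (50% below 0) and the Myc network (15.4%) did not share it.

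**Figure D4:**
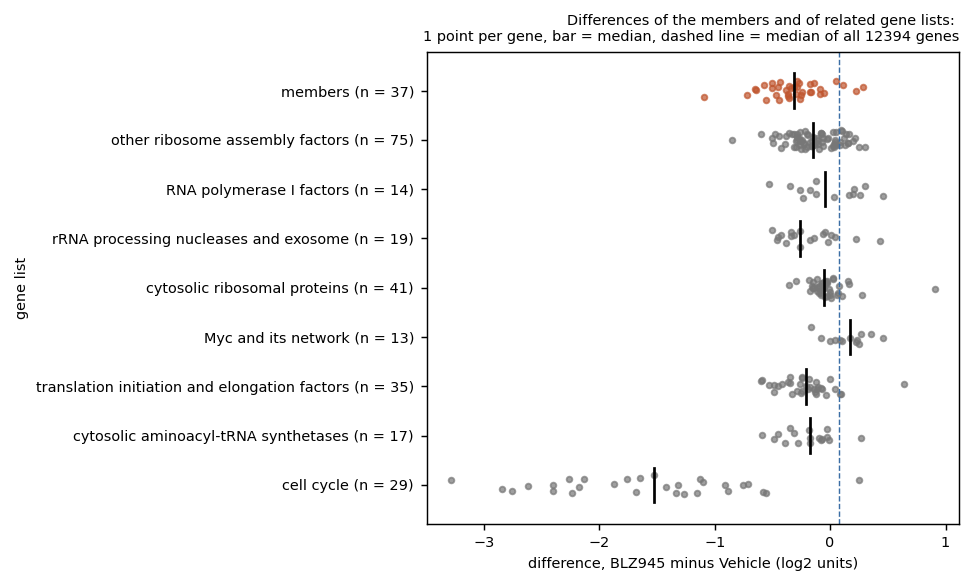
Differences, BLZ945 minus Vehicle in log2 units, for the 37 genes and 8 related lists, with 1 point per gene, a bar at each median and a dashed line at the median of all 12394 genes (0.07). The 37 genes have a median of −0.31, ribosomal proteins one of −0.05 and cell cycle genes one of −1.53.

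Proliferation genes and glioma markers moved with the comparison too. Of 29 cell cycle genes 28 fell (96.6%, against 5.34% of all genes) and 0 rose, with a median of −1.53. Their mean went from 7.66 ± 0.47 (7.10 to 8.23) to 6.06 ± 0.45 (5.48 to 6.77), with no overlap. Mki67, the proliferation marker, fell by 2.84 (adjusted p = 0.00181). Of the 12 glioma and oligodendrocyte precursor markers, 9 had differences below 0 (75%, against 38.9% of all genes) and the others differed by up to 0.44. The 4 with the smallest p had differences of −2.71 (Pdgfra), −2.76 (Fabp7), −1.88 (Ptprz1) and −1.65 (Ncan). The list mean went from 6.58 ± 0.50 to 5.49 ± 0.55. Markers of T cells, B cells, NK cells, neutrophils, endothelium, pericytes, astrocytes and neurons gave 0 calls. At an unadjusted p under 0.05 the T and NK lists had 4 genes each higher, the B cell list 2 higher, the endothelial list 1 higher and 1 lower, the astrocyte list 1 lower, and the other lists 0. The part of dividing cells and of glioma cells in the lower values of ribosome assembly genes was not tested.

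RNA quality and array spread were read from the same arrays. The SD of all values of an array was 2.39 ± 0.07 in Vehicle and 2.33 ± 0.08 in BLZ945 mice (n = 8 each, exact two-sided permutation p = 0.149, 0.258 after adjustment over 6 tests). The 3′ minus 5′ log2 difference was 0.57 and 0.67 for Gapdh (p = 0.578, same exact test) and 1.02 and 1.26 for Actb (p = 0.172, same exact test). With the array SD as a covariate 8 of the 37 genes fell, 6 of them among the 9 above, while 6.28% of all genes fell. Besides Nop58, the genes that no longer passed were Nop56 (−0.50, adjusted p = 0.0673) and Nop16 (−0.40, 0.0618).

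**Figure D5:**
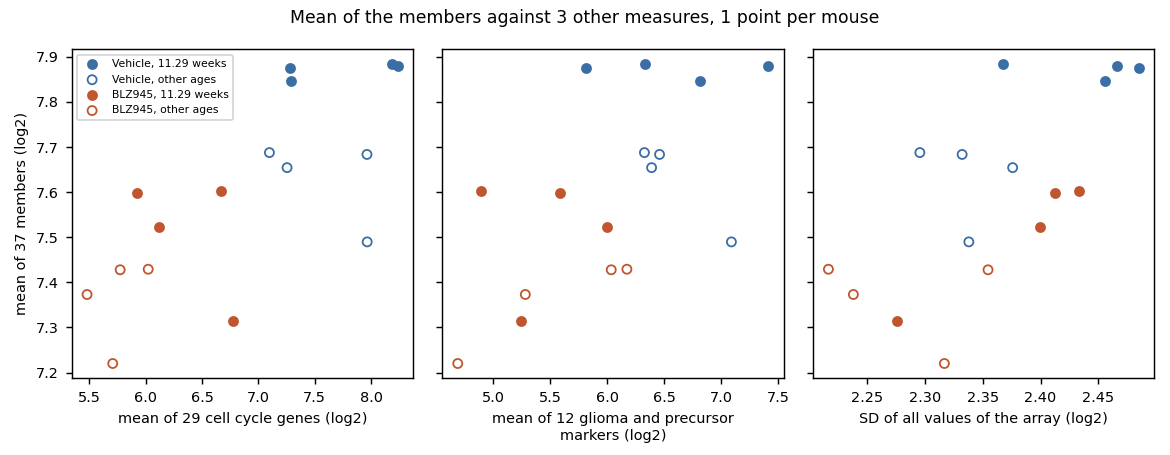
The mean log2 value of the 37 genes in each mouse (vertical axes) against the mean of 29 cell cycle genes, the mean of 12 glioma and precursor markers, and the SD of all values of the array (horizontal axes, log2). Vehicle mice of 11.29 weeks are highest, at 7.85 to 7.88, and cell cycle means of the 2 agents do not overlap (7.10 to 8.23 against 5.48 to 6.77).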

How the data were processed

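The authors' deposited log2 values, as their range shows them to be, were analysed unaltered. Per the submitters' processing notes, GCOS 1.4 and RMA were used, whose roles are not stated. Annotation and genome build: not given in the sources used here. Such values compress differences of dim probe sets, and without scanner intensities no probe set was called above background. The number of arrays limits the precision.

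Of 22690 probe sets, 20393 had 1 gene symbol, 691 several and 1606 none in the platform annotation, and 20364 were matched by gene identifier in a RefSeq table. The brightest probe set of each of 12394 genes was fitted with limma 3.58.1 in R 4.3.3 (lmFit, eBayes, no covariate, 8 against 8 mice). A gene passed at a Benjamini-Hochberg adjusted p under 0.05 over all genes, and single-gene adjusted p are limma's. Sex, interaction, age and volume had fits of their own. On simulated data for 12394 genes, the agent fit recovered 46.3% of genes changed by 0.5, 85.1% by 1 and 97.0% by 2 log2 units, and the age fit 1.5%, 46.3% and 93.9%. At the same sizes the sex fit recovered 28.4%, 77.6% and 95.5%. The interaction fit recovered 0.0%, 17.9% and 68.2%, and the volume fit, per doubling, 4.5%, 44.8% and 95.5%. In each simulation the changed genes were split about evenly over these sizes, with normal noise independent between genes. Recovery depends on that mix. Recovery with as few calls as the sex, interaction, age and volume fits gave was not simulated. Array correlations of 0.937 to 0.991 gave no sign of a repeated array.

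The genes and lists were chosen with earlier results of these data known. Values are given for the 12 genes with the smallest p and the 3 with the smallest absolute difference. In other lists up to 4 changed genes are named, or else the 2 with the smallest p, besides 17 fixed genes. Alternatives covered probe sets, dim genes, normalization, eBayes settings, array weights, covariates, subsets of mice, a replicate block and leaving out each mouse. For the age contrast the second probe set and the array SD, and for sex the array SD, were added after the data were seen.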

Additional observations from a re-analysis of the deposited data

Results flagged for a closer look

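Imp4, an early factor of the small subunit, had 1 mouse far from the rest of its group. BLZ945 4 was at 8.30, and the next highest of the 8 BLZ945 mice at 7.98. The gap to the neighbour was 0.535 of the group's range, just above Dixon's limit for 8 samples at the usual confidence. It was 1 of 74 groups examined, where chance marks about 1 in 20. The same mouse had the highest Ppan, at 8.13.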

How the results depend on the processing

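The number of the 37 genes that fell was 9 over all mice, 1 with age as a covariate, 1 in females (Ddx21), 0 in males and 0 at 11.29 weeks. Of all genes, 5.34%, 1.43%, 2.19%, 0.0161% and 0.629% fell in these fits. When 1 mouse was left out the number was 4 to 12, against 3.89% to 6.06% of all genes. Age as a covariate and 11.29 weeks alone gave the same differences, so they are 1 estimate of size. The number that fell was 6 to 12 under the other settings without a block, against 4.26% to 8.06% of the genes tested. The number that rose was 0 throughout, including each mouse left out (0 to 0). With the replicate number as a block, 5 passed (Ddx21, Nolc1, Nhp2, Rrp12 and Nop56), and Ncl (adjusted p = 0.0551), Fbl (0.0532), Nop58 (0.0583) and Nop16 (0.0731) did not. In that fit 4.55% of all genes fell. No pairing of the mice is stated. Deviations of same-numbered mice correlated between −0.48 and 0.39, and 1 of 8 correlated best with its own number. These correlations cannot show whether same-numbered mice shared a day or batch, which is not labelled. Calls over all genes, 984, became 215 with age as covariate, 1644 with the array SD, 393 in females, 2 in males, 89 at 11.29 weeks and 710 to 1188 with 1 mouse left out. The lower share of all calls, 67.3%, was 58.4% after quantile normalization, 56.5% after median centring, 47.3% with the array SD, 82.3% with age as covariate and 87.6% at 11.29 weeks. The 1 gene lower with age, Gnl2, became 0 with quantile normalization, sex as covariate, the second probe set or the array SD. Fewer mice were tested in the subsets, and the cause of the other changes was not tested.

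Some differences that did not pass turned sign. In females these were Nop10 (0.00604), Imp4 (0.119) and Nop2 (0.00294), and in males Npm1 (0.00861), Rrp9 (−0.00130), Rcl1 (−0.0537), Ppan (−0.501) and Nip7 (0.00366). With age as covariate and at 11.29 weeks alike they were Polr1c (−0.0574), Rcl1 (−0.181) and Ppan (−0.127). The second probe set turned Heatr1 (0.0218), Wdr75 (0.136), Bysl (0.0448), Pes1 (0.0670) and Ebna1bp2 (0.0356), besides Nop16 (0.0576), which had passed. The array SD turned Npm1 (0.0482), Rrp9 (−0.00255), Ppan (−0.111) and Nip7 (0.0123), array weights Ppan (−0.104), and quantile normalization Nip7 (0.00153). With 1 mouse left out, Ppan ran from −0.0456 (without BLZ945 4) to 0.193.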
